A study of Mus musculus with 20 samples.

Results

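The comparison described here is the last step of a TGF-β1 time course, 24 h against 12 h, in cultured mouse common dendritic cell progenitors (CDP). It rests on 4 of the 20 arrays of the series, chosen by label: 2 arrays of CDP treated with TGF-β1 for 12 h and 2 treated for 24 h. Each array started from 250 ng of total RNA from cells amplified from C57BL/6 bone marrow. The test drew its estimate of spread from all 10 arrays of the time course, which also holds 2 arrays each of untreated CDP (0 h) and of CDP treated for 4 h and 8 h. Separate arrays of multipotent progenitors (MPP), CDP, conventional dendritic cells (cDC) and plasmacytoid dendritic cells (pDC), 2 each, labelled with another kit, were used for comparison. Cells kept for 12 h or 24 h without TGF-β1 were not analysed here, so its effect and that of time in culture cannot be told apart. The labels give no dose of TGF-β1. Nothing in the labels says that the 2 arrays of a time came from separate mice or cultures, so the p-values reflect array-to-array spread that may be purely technical.

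TGF-β1 brings together the receptor kinases TGFBR2 and TGFBR1. TGFBR2 phosphorylates TGFBR1, which in turn phosphorylates SMAD2 and SMAD3, and these join SMAD4 and act on transcription in the nucleus. CDP give rise to cDC, which present antigen to T cells on MHC class II, and to pDC, which make type I interferon on sensing viral nucleic acid. TGF-β is required for Langerhans cells, the dendritic cells of the epidermis, which are held among keratinocytes by epithelial adhesion molecules.

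The label was checked against the receptors that define CDP. Flt3, the receptor for the growth factor that drives dendritic cell development, had deposited log2 levels of 12.02 and 12.26 at 12 h and 12.11 and 12.29 at 24 h. Csf1r, the receptor for M-CSF, had 13.28 and 13.09 at 12 h and 13.54 and 13.17 at 24 h. Both receptors were thus high on every array of the comparison, with no difference past the test. Kit, the other receptor of this check, was called higher at 24 h (difference 2.66) and is described below. On the separate arrays Flt3 had a mean of 9.60 in CDP, 10.93 in cDC and 10.39 in pDC. A high Flt3 level therefore does not tell CDP from the cells they give rise to.

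Replicate 1 of 4, 12 and 24 h stood apart in the signal from the 5′ end of transcripts. The 3′ Gapdh control probe set exceeded the 5′ one by 2.09 to 2.78 log2 units on these 3 arrays, against 0.01 to 0.10 on the other 7. Because replicate 1 was low at both 12 h and 24 h, each difference is also given within a replicate number, which compares arrays of the same kind. The labels do not pair arrays by replicate number. Deviations of same-numbered arrays from the group mean at 12 h and at 24 h correlated across genes with r = 0.85. Replicate 1 was low in 5′ signal at both times, so pairing and this signal cannot be told apart. The block on replicate number may take up the low 5′ signal as well as any shared culture. The main test is a limma fit without the block, and values from the fit with the block follow it, since it changed the calls. A gene is called at a Benjamini-Hochberg adjusted p under 0.05 over all genes tested.

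Between 12 h and 24 h, 9 of 12655 genes tested (0.0711%) were called without the block, and all 9 were higher at 24 h by at least 2-fold. No gene was called lower, although 623 genes lay lower and 615 higher at an unadjusted p under 0.05. With the block 310 genes were called (2.45%), 205 higher (1.62%) and 105 lower (0.83%), of which 151 and 52 differed by at least 2-fold. All 9 genes were among these 310. Without any one of the 4 arrays of 12 h and 24 h, the blocked count fell to 0. Without 1 of the 8 h arrays it was 144 or 147. Without any one of the arrays of 0 h, 8 h, 12 h or 24 h, the count without the block fell to 0. Without 1 array of 4 h, the group with the widest replicate spread (SD 0.51, against 0.15 at 0 h), it rose to as many as 121, and the blocked count to as many as 708.

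The differences were of like size in both replicate numbers. Of the genes tested, 9014 moved in the same direction in replicate 1 and in replicate 2, 4229 higher and 4785 lower. Differences of at least 2-fold in both numbers were found for 134 genes that were higher and 48 that were lower, and no gene moved at least 2-fold in opposite directions. The SD of the differences across genes was 0.39 log2 units in either number, and their correlation across genes, which are not independent replicates, was 0.75. All 310 blocked calls had the same direction in both numbers, and for 308 the arrays of 12 h and 24 h did not overlap. The blocked fit favours genes with like differences in both numbers on these same arrays. The agreement among its calls is therefore no separate support.

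**Figure D1:**
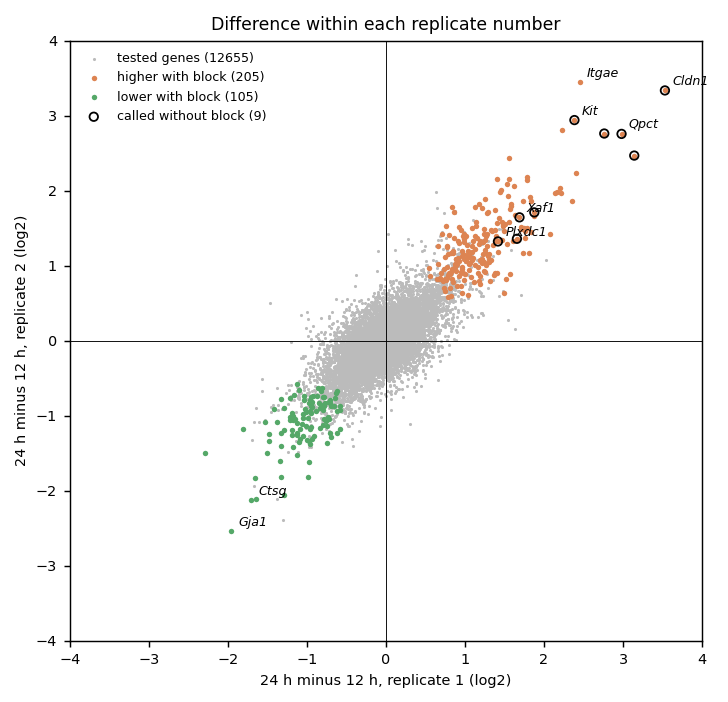
Each point is a gene tested, with its difference between 24 h and 12 h (log2) in replicate 1 on the x axis and in replicate 2 on the y axis. Orange and green mark the 205 and 105 genes called with the block, circles the 9 called without it. Coloured points lie in the upper right or lower left of the plot, a pattern that selection by the blocked fit favours.

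The widest difference among the 9 genes was that of Cldn1, which encodes claudin-1, a tight junction protein. Its log2 level was 5.78 and 5.28 at 12 h and 9.30 and 8.61 at 24 h. Both arrays of 24 h lay above both arrays of 12 h, and the difference was 3.43 ± 0.34 (limma SE, adjusted p = 0.022, with the block 0.0054), a 10.8-fold rise. The level rested on 1 of its 4 probe sets, since the others exceeded 5 on fewer than 2 arrays.

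Kit, the receptor tyrosine kinase for stem cell factor and a marker of haematopoietic progenitors, had levels of 6.58 and 5.78 at 12 h and 8.97 and 8.72 at 24 h. It rose by 2.66 ± 0.30, or 6.33-fold (adjusted p = 0.038, with the block 0.0054). The earlier arrays showed another course. Its level was 7.43 and 7.08 at 0 h, 5.98 and 6.12 at 4 h, and 6.07 and 5.48 at 8 h, so that all arrays from 4 h to 12 h lay below those of untreated cells and both arrays of 24 h above. A second Kit probe set did not exceed 5 on 2 arrays, and with the mean of both the rise was 1.35 (adjusted p = 0.034).

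Gna14, a G protein alpha subunit of the Gq class, was at 7.49 and 7.98 at 12 h and at 10.25 and 10.74 at 24 h. The rise of 2.76 ± 0.26 (6.78-fold, adjusted p = 0.022) was 2.76 in both replicate numbers, and 2 further probe sets differed by at least 2.84. Qpct, the glutaminyl cyclase that forms N-terminal pyroglutamate, rose from 6.06 and 6.71 to 9.04 and 9.47, by 2.87 ± 0.29 (7.3-fold, adjusted p = 0.022). B3galnt1, the glycosyltransferase that makes globoside, went from 4.63 and 5.09 to 7.77 and 7.56, a rise of 2.80 ± 0.24 (adjusted p = 0.022). None of these 3 genes had overlapping arrays.

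Ifnlr1, the specific chain of the receptor for interferon lambda, had levels of 8.14 and 8.37 at 12 h and 10.02 and 10.08 at 24 h, a rise of 1.79 ± 0.18 (3.47-fold, adjusted p = 0.022). Xaf1, an interferon-induced antagonist of the caspase inhibitor XIAP, went from 7.22 and 7.11 to 8.91 and 8.75, a rise of 1.67 ± 0.18 (3.17-fold, adjusted p = 0.034). Like Kit, Xaf1 had stood higher at 0 h (7.85 and 7.97) than at 12 h. Alox5, the 5-lipoxygenase that starts leukotriene synthesis, went from 5.77 and 5.97 to 7.43 and 7.33, a rise of 1.51 ± 0.15 (2.84-fold, adjusted p = 0.022). Plxdc1, a membrane protein with a plexin-like domain, went from 6.55 and 6.79 to 7.97 and 8.11, a rise of 1.37 ± 0.16 (adjusted p = 0.046). Its other probe set did not follow, with a difference of -0.04, and with the mean of both Plxdc1 was not called (adjusted p = 0.086).

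**Figure D2:**
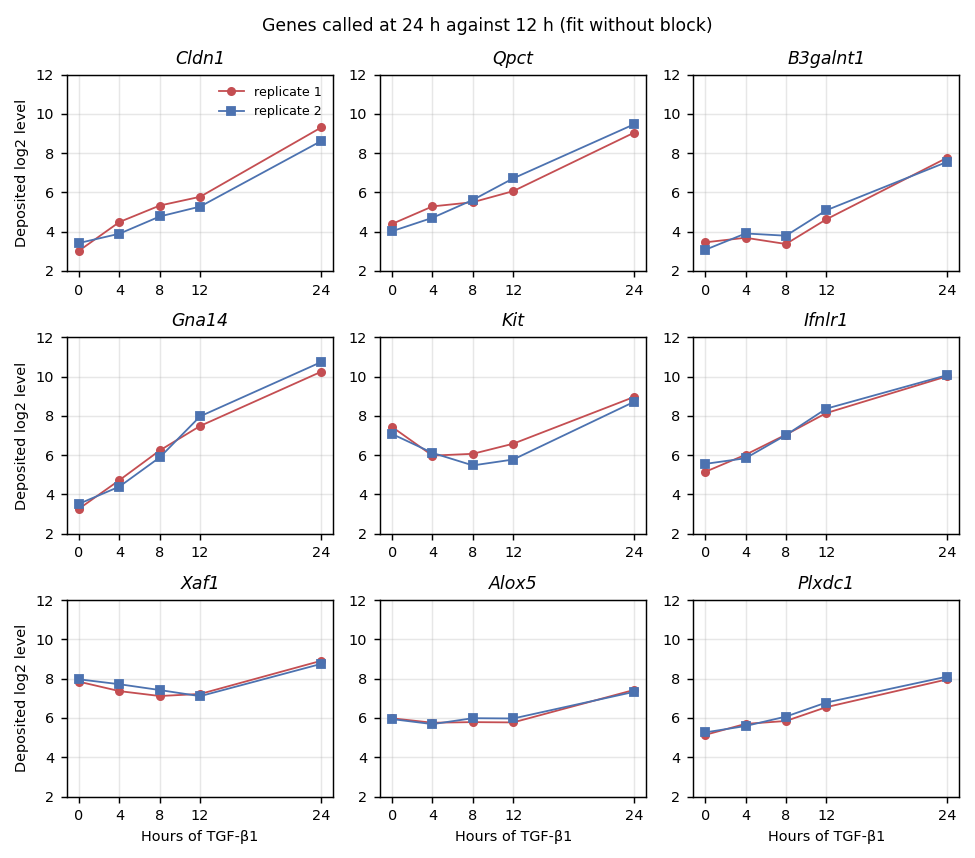
Deposited log2 level (y axis) over hours of TGF-β1 (x axis) for the 9 genes called without the block, with replicate 1 as circles and replicate 2 as squares. In each panel both points at 24 h lie above both at 12 h. For Kit, Xaf1 and Alox5 the mean at 12 h lies below that at 0 h.

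Below this threshold, the next increases by p were those of Prkcb, Gabbr1 and Trim7. Prkcb, protein kinase C beta, went from 9.47 and 9.96 to 11.87 and 12.20, a difference of 2.32 (adjusted p = 0.053, with the block 0.014). The GABA-B receptor subunit Gabbr1 differed by 1.50 (adjusted p = 0.052, with the block 0.014), and Trim7, a ubiquitin ligase, by 1.19 with levels under 5 at 12 h (adjusted p = 0.052, with the block 0.013). The decreases of smallest p missed the threshold without the block by a like margin. They were led by Nop56 and Nolc1, described with ribosome biogenesis below, and held Cnn3, Oaf, Ctsg, Mgst1, Gar1, Fam43a, Tnfrsf21, Sh2d5, Dnajc27 and Ruvbl1, with differences from -0.91 to -1.92 and adjusted p from 0.054 to 0.076. All 12 were called lower with the block.

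Further large increases were called only with the block. Itgae, the integrin alpha E that pairs with beta 7 and binds E-cadherin, had levels of 9.15 and 7.71 at 12 h and 11.60 and 11.16 at 24 h. The difference was 2.45 in replicate 1 and 3.45 in replicate 2 (mean 2.95, adjusted p = 0.081 without and 0.013 with the block). Cd7, an immunoglobulin-family protein of lymphoid cells and pDC, was at 8.63 and 9.62 at 12 h and 10.86 and 12.43 at 24 h (difference 2.52, adjusted p = 0.15 without and 0.021 with the block). Rab38, a GTPase of lysosome-related organelles, differed by 2.09 (adjusted p = 0.099 without and 0.017 with the block), and the transcription factor St18 by 2.07 from levels under 5 (adjusted p = 0.13 without and 0.0054 with the block). Igha, the constant region of immunoglobulin A, differed by 2.12, and by up to 2.16 in its other probe sets (adjusted p = 0.21 without and 0.014 with the block). No member of the B cell marker list was called: over its 6 tested genes the mean level was 7.27 and 7.38 at 12 h and 7.23 and 7.38 at 24 h.

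Most genes of MHC class II presentation were higher at 24 h. Of the 17 tested members of the MHC class II presentation list, 6 were called higher with the block and none lower. None was called without the block. In both replicate numbers 16 of 17 were higher, against 4229 of all 12655 genes tested. The median difference was 1.01, against -0.02 over all genes tested. H2-Ab1, the class II beta chain, had levels of 9.28 and 9.56 at 12 h and 10.57 and 11.28 at 24 h, a difference of 1.50 or 2.84-fold (adjusted p = 0.099 without and 0.036 with the block). H2-Aa, the alpha chain that pairs with it, went from 11.62 and 10.91 to 12.90 and 12.61 (difference 1.49, adjusted p = 0.26 without and 0.024 with the block). Ciita, the coactivator on which class II transcription depends, went from 6.42 and 6.39 to 7.27 and 7.56 (difference 1.01, adjusted p = 0.079 without and 0.026 with the block). The other 3 were H2-DMb2 and H2-Ob, chains of the peptide-loading complexes, and Ifi30, a lysosomal thiol reductase, with differences of 1.22, 1.02 and 0.76. H2-DMb2 has a close paralogue whose RNA its probes may share. H2-Eb1 (1.30) and the invariant chain Cd74 (1.29) were not called with the block, and in both the difference was wider in replicate 2 (1.72 and 1.70) than in replicate 1 (0.87 and 0.88). The DNA-binding RFX subunits Rfx5, Rfxank and Rfxap differed by 0.26, 0.08 and 0.04.

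The promoter of H2-Aa is shown because it is the one window among the called class II genes that holds the Y box CTGATTGG, searched on both strands, the motif of class II promoters that the factor NF-Y binds. The window, from RefSeq on build GRCm38.p6, runs from 250 bases before to 50 after the transcription start. Capitals mark the motif, which starts 51 bases before the start site.
H2-Aa, chr17:34287774-34288073, - strand: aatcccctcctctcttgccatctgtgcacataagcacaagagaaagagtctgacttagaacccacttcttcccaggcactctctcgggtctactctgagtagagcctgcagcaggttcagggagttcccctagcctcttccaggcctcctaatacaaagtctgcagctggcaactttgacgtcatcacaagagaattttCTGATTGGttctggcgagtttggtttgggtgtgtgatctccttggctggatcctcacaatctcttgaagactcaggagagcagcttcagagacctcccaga
The motif lies in 1 of 4 windows of the 4 called class II genes that had one, and in 4.10% of all 32851 windows.

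The interferon response list holds genes induced by interferon and interferon regulatory factors. Of its 38 tested members, 12 were called higher with the block and none lower, with Xaf1 also called without it. The share called was 31.6%, against 35.3% of the MHC class II list and 2.45% of all genes tested. The median difference was 0.61, and 29 of 38 were higher in both numbers, against 4229 of all 12655 genes tested. Rtp4, a chaperone of receptor transport, had levels of 6.84 and 5.91 at 12 h and 8.46 and 7.97 at 24 h (difference 1.84, adjusted p = 0.23 without and 0.014 with the block). Oasl2, an oligoadenylate synthetase-like protein, went from 4.46 and 4.01 to 6.29 and 5.93 (difference 1.87, at least 2.16-fold, adjusted p = 0.099 without and 0.033 with the block). The RNA sensors Ifih1 (MDA5) and Ddx58 (RIG-I) differed by 1.27 and 1.17, and the deISGylase Usp18 by 1.29. Irf9, the DNA-binding subunit of the factor ISGF3, went from 8.44 and 8.34 to 9.41 and 9.32, a difference of 0.97 (adjusted p = 0.19 without and 0.033 with the block). Its partner Stat2 differed by 1.00 and was not called (adjusted p with the block 0.10). Gbp2, Isg20, Trim30a, Mx1 and Oas2 completed the 12, with differences of 0.82 to 1.30, and Trim30a has near-identical neighbours that may share its signal. Ifit3, Psmb8, Psmb9 and Ifitm3 differed by 0.01, -0.17, -0.06 and -0.19.

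The course of this group over the series was not one of steady increase. Relative to the mean of 0 h, the median level of the 38 genes was -0.33 and -0.32 on the arrays of 12 h and 0.29 and 0.36 on those of 24 h. The 12 h arrays thus lay below untreated cells and the 24 h arrays above. For MHC class II the same medians were 0.62 and 0.77 at 12 h and 1.22 and 1.49 at 24 h.

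Promoter windows of interferon-stimulated genes are shown for 3 of the called genes that hold the motif below, the RNA sensors Ifih1 and Ddx58 among them. The motif searched was the interferon-stimulated response element on both strands, taken as GAAA, any 2 bases and GAAA again, and matches are in capitals. A match on the opposite strand reads as the reverse complement. The match starts 59 bases before the start site in Gbp2 and lies after it in the windows of Ifih1 and Ddx58.
Ifih1, chr2:62646206-62646505, - strand: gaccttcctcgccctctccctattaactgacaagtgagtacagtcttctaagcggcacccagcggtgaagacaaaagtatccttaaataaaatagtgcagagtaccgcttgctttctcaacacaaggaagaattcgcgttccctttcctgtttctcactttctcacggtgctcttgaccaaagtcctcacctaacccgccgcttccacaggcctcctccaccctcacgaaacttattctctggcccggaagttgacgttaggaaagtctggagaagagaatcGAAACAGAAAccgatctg
Ddx58, chr4:40239776-40240075, - strand: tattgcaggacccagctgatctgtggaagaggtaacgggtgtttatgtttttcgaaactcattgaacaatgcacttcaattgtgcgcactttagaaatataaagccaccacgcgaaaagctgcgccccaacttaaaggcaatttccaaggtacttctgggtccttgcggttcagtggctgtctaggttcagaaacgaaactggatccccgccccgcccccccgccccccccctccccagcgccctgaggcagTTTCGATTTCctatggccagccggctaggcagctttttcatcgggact
Gbp2, chr3:142620413-142620712, + strand: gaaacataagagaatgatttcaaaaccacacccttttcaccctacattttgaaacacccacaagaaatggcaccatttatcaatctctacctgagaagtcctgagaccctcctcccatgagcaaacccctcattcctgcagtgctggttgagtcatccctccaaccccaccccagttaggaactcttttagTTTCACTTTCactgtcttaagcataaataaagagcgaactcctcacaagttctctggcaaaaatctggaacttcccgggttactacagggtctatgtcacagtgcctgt
Of the 12 called genes, 8 had a window, and the motif lies in windows of 4 of them, these 3 and Trim30a, or 5 of their 12 windows (41.7%). Of all windows 3.44% hold it. The share among uncalled members of the same list was not computed, so the motif cannot be tied to the calls. Trim30a gave more than 1 of the 5 windows. Such a match is a description of the letters and not a test of binding.

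**Figure D3:**
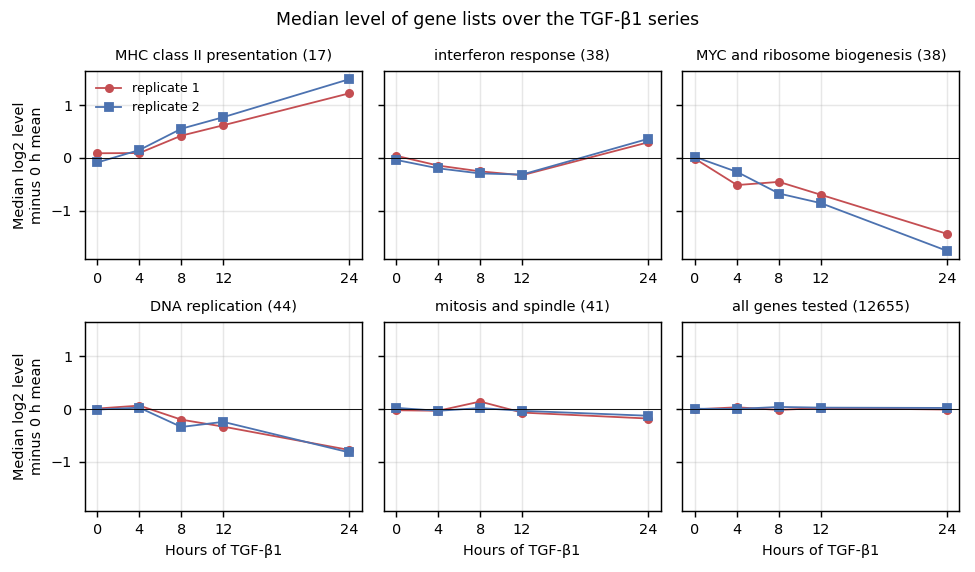
Median log2 level of the tested members of 5 lists and of all genes, relative to each gene's mean at 0 h (y axis), over hours of TGF-β1 (x axis), with replicate 1 as circles and replicate 2 as squares. The interferon list dips to -0.33 and -0.32 at 12 h and lies above 0 at 24 h; MYC and ribosome biogenesis genes end at -1.44 and -1.76.

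Among transcription factors of cDC, Irf4, needed for the migratory and CD11b-positive subset, was the only one of 15 tested members called with the block. That share of 6.67% stands against 2.45% of all genes tested. For Irf4 the values were as follows. Its levels were 7.40 and 7.60 at 12 h and 8.87 and 9.18 at 24 h, a difference of 1.52 (adjusted p = 0.079 without and 0.010 with the block). Zbtb46, a marker of the cDC lineage, went from 5.78 and 6.42 to 7.21 and 7.02, but its difference of 1.01 was not called in either fit (adjusted p = 0.14 and 0.064). Batf3, the factor of cross-presenting cDC, differed by 1.00 with overlapping arrays (adjusted p = 0.47 and 0.15). Id2, the inhibitor of E proteins that favours cDC over pDC, was already at 12.77 and 12.23 at 12 h and reached 13.35 and 12.99 (difference 0.67, adjusted p = 0.78 and 0.16). Relb, Klf4 and Spi1 differed by 0.52, 0.57 and 0.24, and Irf8 and Nfil3 by -0.52 and -0.42, none of them called. Of the factors of pDC, Tcf4 (E2-2) was at 10.94 and 10.72 at 12 h and 11.01 and 10.65 at 24 h, and Spib differed by 0.59 (adjusted p = 0.42 and 0.12).

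Of 17 tested surface and effector genes of cDC, Itgae alone was called with the block; Itgax, which encodes CD11c, differed by 1.22 (adjusted p = 0.38 without and 0.12 with the block). Of 20 tested pDC markers, 2 were called higher with the block. They were Blnk, an adaptor of B cell receptor signalling (difference 1.30), and Il7r, the interleukin-7 receptor (1.19). The shares called were 5.88% of the cDC surface list and 10% of the pDC list, against 2.45% of all genes tested. On the separate arrays Il7r was higher than in CDP by 7.93 in pDC and by 4.33 in cDC. Blnk, whose CDP mean of 3.35 lay under 5, was at least 123-fold higher in pDC and at least 15.1-fold in cDC.

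The maturation and costimulation list held 5 members called higher and 1 lower of 23 tested, with the block. The share was 26.1%, against 2.45% of all genes tested. Cd40, the receptor for T cell help, went from 7.38 and 7.29 to 8.78 and 8.20 (difference 1.15, adjusted p = 0.099 without and 0.022 with the block). Cd83 and Cd200 differed by 0.96 and 1.17, and Marcks, a substrate of protein kinase C that binds actin, by 1.53. Il6 went from 3.55 and 3.57 to 5.90 and 5.43, at least 1.59-fold when values under 5 are set to 5 (adjusted p = 0.054 without and 0.011 with the block). Il12a, the p35 subunit of interleukin-12, was lower by 1.41, with arrays of 6.61 and 8.05 at 12 h and 5.12 and 6.71 at 24 h (adjusted p = 0.62 without and 0.041 with the block). Its arrays overlapped across the replicate numbers but not within them. Ccr7, the receptor that guides mature dendritic cells to lymph nodes, differed by 0.33 and was not called (adjusted p = 0.81 and 0.57).

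Adhesion genes of epithelia and Langerhans cells gave 3 calls with the block among 16 tested (18.8%, against 2.45% of all genes), all higher. Beside Cldn1 these were Cdh1, E-cadherin, at 10.87 and 10.64 at 12 h and 12.43 and 12.21 at 24 h (difference 1.57, adjusted p = 0.14 without and 0.027 with the block). The third was Tjp1, the junction scaffold ZO-1, which went from 6.74 and 6.39 to 8.16 and 7.57 (difference 1.30, adjusted p = 0.13 without and 0.019 with the block). Epcam and Cd207, which mark Langerhans cells, were not called. Epcam was at 6.06 and 5.87 at 12 h and 6.38 and 6.05 at 24 h, though its second probe set differed by 1.63. Cd207, which encodes langerin, was at 5.39 and 5.42 and then 5.03 and 5.23.

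Of 33 tested cytokine receptors, 5 were called higher and 1 lower with the block, a share of 18.2% against 2.45% of all genes. Beside Kit and Il7r, the increases were those of Il18r1 (difference 1.60), of the decoy receptor Il1r2 (1.49) and of Il13ra1 (1.40). The decrease was that of Il12rb1, a chain of the interleukin-12 and interleukin-23 receptors (-0.85, adjusted p = 0.15 without and 0.049 with the block). The shared beta chain Csf2rb differed by 0.13. Ccr6, a chemokine receptor of Langerhans cell precursors, went from 7.95 and 8.97 to 9.53 and 10.79 and was the single call with the block among 23 chemokine genes (difference 1.70, adjusted p = 0.21 without and 0.017 with the block). In the leukotriene and prostaglandin pathway, Alox5 was joined by Hpgds, the haematopoietic prostaglandin D synthase (difference 1.40, adjusted p = 0.19 without and 0.048 with the block), 2 of 15 tested. The share called was 13.3% in this pathway and 4.35% among chemokine genes.

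Of 33 tested members of the TGF-β SMAD response list, 2 were called higher and 2 lower with the block, a share of 12.1% against 2.45% of all genes tested, and none without it. The receptor gene Tgfbr1 stood at 12.35 and 12.22 at 12 h and 12.67 and 12.51 at 24 h (difference 0.31, adjusted p = 0.76 and 0.39), and Tgfbr2 differed by 0.47 with overlapping arrays. The inhibitors Smad7 and Skil differed by 0.29 and 0.34, the ligand gene Tgfb1 by 0.01 and Runx3 by 0.58, none of them called. Smad3, the signal transducer, was lower with the block, at 8.13 and 7.64 and then 7.03 and 6.97 (difference -0.88, adjusted p = 0.14 without and 0.042 with the block). Tgfbi, an extracellular matrix protein named for its induction by TGF-β, was also lower, at 11.44 and 10.23 and then 9.79 and 8.12 (difference -1.88, adjusted p = 0.29 without and 0.017 with the block). The aryl hydrocarbon receptor Ahr was higher by 1.85 (adjusted p = 0.23 without and 0.011 with the block), though its second probe set differed by only 0.19. Tgfb3, another ligand, was higher by 1.34 (adjusted p = 0.054 without and 0.011 with the block). Id1, a target of BMP signalling, had a level of 5.68 and 7.27 at 12 h and 4.79 and 6.66 at 24 h, a spread between replicates wider than the difference of -0.75.

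**Figure D4:**
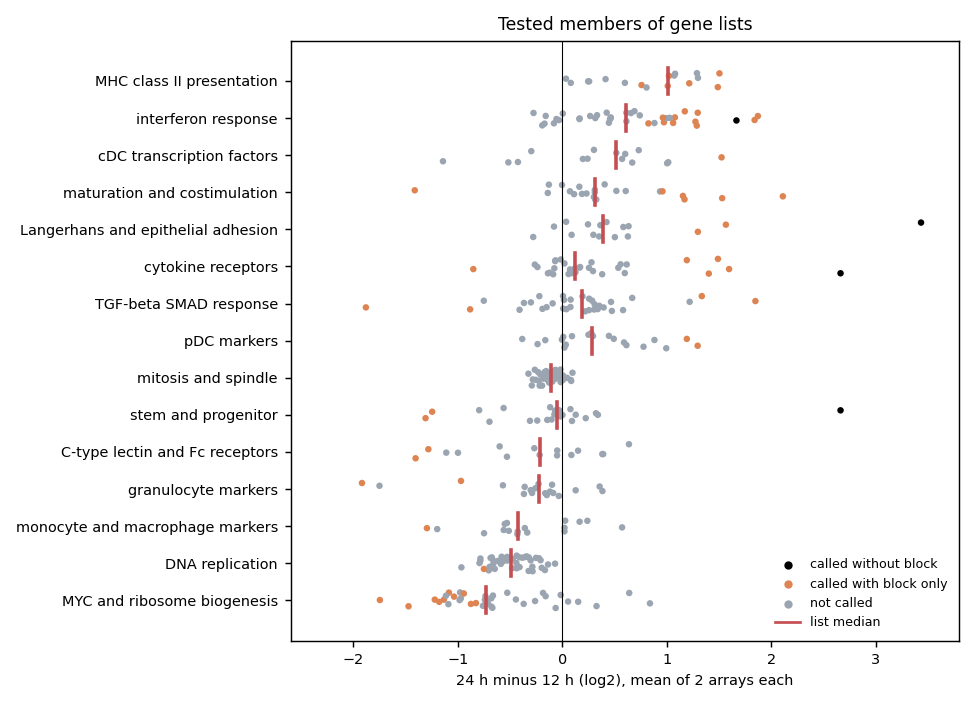
Each point is a tested gene of the list on the y axis, at its difference between 24 h and 12 h (log2, x axis); black points were called without the block, orange with the block only, and the red bar is the list's median. MHC class II presentation has its median at 1.01, and MYC and ribosome biogenesis at -0.73.

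Among decreases, the list with the most calls was that of ribosome assembly. Of 38 tested members of the MYC and ribosome biogenesis list, 10 were called lower with the block and none higher. The share called was 26.3%, against 2.45% of all genes tested. In both replicate numbers 31 of the 38 were lower, against 4785 of all 12655 genes. The median difference of the list was -0.73. None was called without the block. Nop56, a core protein of box C/D small nucleolar RNPs, was at 11.68 and 11.63 at 12 h and 10.59 and 10.46 at 24 h, a difference of -1.13 (adjusted p = 0.054 without and 0.014 with the block). Nolc1, a nucleolar chaperone of these particles, went from 9.68 and 9.76 to 8.49 and 8.51 (difference -1.22, adjusted p = 0.054 without and 0.015 with the block). Gar1 and Dkc1, of the box H/ACA particles, differed by -1.08 and -0.87. The spermidine synthase Srm, a MYC target, went from 10.61 and 10.67 to 8.96 and 8.83 (difference -1.74, adjusted p = 0.13 without and 0.037 with the block). Rrp12, an export and maturation factor of ribosomal subunits, differed by -1.47, and Nop58, Utp20, Bysl and Rrp1b by -0.83 to -1.18. Myc itself was at 9.11 and 9.30 and then 7.94 and 8.50, a difference of -0.98 that was not called (adjusted p = 0.37 and 0.20). The MYC antagonist Mxd4 differed by 0.84 and was not called. The E-box CACGTG lay in 1 of 9 windows of the called genes (11.1%) and in 7.15% of all windows.

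Of 44 tested DNA replication genes, only Gins1, a subunit of the replicative helicase, was called lower with the block, a share of 2.27% that is close to the 2.45% over all genes, and none was called without it. The median was -0.49, and 43 of the 44 were lower in both replicate numbers, against 4785 of all 12655 genes tested. Gins1 was at 10.01 and 10.49 at 12 h and 9.43 and 9.57 at 24 h (difference -0.75, adjusted p = 0.21 without and 0.048 with the block). Mitosis and spindle genes had a median of -0.10 over 41 tested, with no call in either fit. Among cyclins, kinases and their inhibitors, 2 of 21 were called with the block, a share of 9.52%. Cdk6, a kinase of the G1 phase, was at 12.11 on both arrays of 12 h and at 11.17 and 11.15 at 24 h (difference -0.95, adjusted p = 0.082 without and 0.028 with the block). Cdkn1c, the inhibitor p57, was higher by 1.07 (adjusted p = 0.11 without and 0.028 with the block). Myb, a factor of proliferating progenitors, differed by -0.70 (adjusted p = 0.44 and 0.069).

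Of 24 tested stem and progenitor genes, Kit was the one called higher, and Lyl1 and Egfl7 were called lower with the block. The share was 12.5%, against 2.45% of all genes tested. Lyl1, a basic helix-loop-helix factor, was at 9.94 and 10.12 and then 8.65 and 8.93 (difference -1.24, adjusted p = 0.18 without and 0.028 with the block). Egfl7 differed by -1.31, with a least difference of -0.00 among its other probe sets. Of 19 tested granulocyte markers, Ctsg and Mmp8 were called lower with the block, a share of 10.5%. Ctsg, cathepsin G of azurophil granules, was at 8.77 and 8.84 and then 7.06 and 6.72, a difference of -1.92 (adjusted p = 0.062 without and 0.014 with the block). Haptoglobin (Hp) differed by -1.75 (adjusted p = 0.22 and 0.065) and Gfi1, a repressor of granulocyte and stem cell programmes, by 0.13. In bulk RNA, fewer cells of a type and less RNA per cell cannot be told apart. The mean level of the granulocyte list was 6.82 and 6.76 at 12 h and 6.47 and 6.41 at 24 h, and its part in the other results was not tested.

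Of 17 tested monocyte and macrophage markers, only Lyz1, a lysozyme whose probes may share the RNA of Lyz2, was called, lower by 1.29 with the block (adjusted p = 0.19 without and 0.014 with it); the list median was -0.43 and Lyz2 differed by -1.20. The mean level of the list was 8.16 and 8.30 at 12 h and 7.85 and 7.92 at 24 h, and its part in the other results was not tested. Among C-type lectin and Fc receptors, Clec4d and Cd302 were called lower with the block, by 1.28 and 1.40, 2 of 15 tested. Lipid genes gave 2 calls with the block among 16, both lower: Lpl, lipoprotein lipase (-1.09), and Fabp5, a fatty acid binding protein (-1.67, from 12.31 and 11.48 to 11.01 and 9.42). The ATF4 and amino acid stress list held 2 calls lower with the block among 30, the serine synthesis enzymes Phgdh (-1.19) and Psph (-1.05). Its median differed between the replicate numbers, at -0.77 in replicate 1 and -0.02 in replicate 2. The shares called in these lists were 5.88% for monocyte markers, 13.3% for C-type lectin and Fc receptors, 12.5% for lipid genes and 6.67% for ATF4. Over all genes tested the share was 2.45%.

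The largest decreases called with the block included genes outside the lists. Gja1, the gap junction protein connexin 43, went from 8.15 and 6.91 to 6.19 and 4.36 (difference -2.25, adjusted p = 0.25 without and 0.045 with the block), but 1 of its other probe sets differed by 0.06. Bcat1, the cytosolic branched-chain aminotransferase, went from 8.14 and 7.54 to 5.86 and 6.04 (difference -1.90, adjusted p = 0.082 without and 0.028 with the block). Its 2 other probe sets above 5 differed by only -0.55 and -0.21. Cd28, the costimulatory receptor, and Dctd, the dCMP deaminase, differed by -1.51 and -1.49.

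Single calls with the block were found in further lists: Jak2 among 21 STAT and SOCS genes (0.90), Ier5 among 28 immediate early and stress genes (1.09), Aldoc among 19 glycolysis genes (1.31), the integrin Itga4 among 23 integrin and adhesion genes (1.20) and the pro-apoptotic Bmf among 15 BCL2 family genes (1.56). All 5 were higher, and a second Bmf probe set differed by -0.14. The shares called ran from 3.57% to 6.67%, each from 1 gene, against 2.45% of all genes tested. Car2 was higher among 7 erythroid markers (1.57, 14.3% called), whose median difference was only 0.09. Siglecf was higher among 2 eosinophil markers (1.86), while the other differed by -0.52. The rise of the eosinophil mean given next thus rests on Siglecf alone. The erythroid list had a mean level of 6.45 and 6.55 at 12 h and 6.68 and 6.66 at 24 h, and the eosinophil list one of 7.64 and 7.57 and then 8.22 and 8.32; the part of either in the other results was not tested. No member of the lists for Toll-like receptors, sterol and fatty acid synthesis, lysosomal proteases, or mast cell, megakaryocyte, B cell and T and NK cell markers was called in either fit.

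The separate arrays of CDP, cDC and pDC, which share no array with the time course, allowed the called genes to be set against finished dendritic cells. Of the 205 genes higher with the block, 154 could be tested there, and 116 (75.3%) were higher in cDC than in CDP with 1 lower, against 18.4% and 29.7% of the 8764 genes tested in both fits. Of the same 154 genes, 94 (61.0%) were higher in pDC than in CDP and 11 lower, against 21.5% and 31.9%. Between cDC and pDC, 56 (36.4%) were higher in cDC than in pDC and 24 (15.6%) lower, against 12.6% and 12.5%. Of 94 genes lower with the block, 77 (81.9%) were lower in cDC and 82 (87.2%) lower in pDC than in CDP. Directly compared, 21 of the 94 were higher and 15 lower in cDC than in pDC. The filter for these arrays keeps genes above 5 in cDC or pDC alone. Without a filter, 98 of 218 genes higher with the block (45.0%) were higher in cDC than in CDP, against 6.47% of all genes. For pDC the share was 33.0%, against 8.34%. Of 111 genes lower with the block, 73 (65.8%) were lower in cDC, against 10.1%, and 77 (69.4%) were lower in pDC, against 12.4%. No enrichment test was run on these counts.

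Of the 9 genes called without the block, 6 could be tested there. Relative to CDP, 4 were higher and none lower in cDC, and 3 were higher and none lower in pDC. Of all genes tested in both fits, 18.4% were higher in cDC and 21.5% in pDC. Kit was higher in cDC by 6.06 (limma adjusted p = 2.6e-05) and in pDC by 0.92 (0.023), from a CDP mean of 5.03. Where the CDP mean lay under 5, folds were computed against 5 and are lower bounds. Cldn1, at the floor of the deposited values in MPP, CDP and pDC, was at least 2.86-fold higher in cDC. It passed the filter only through its cDC arrays. Identical floor values add no spread, so its call rests on them and no p-value is given. B3galnt1 was at least 14.7-fold higher in pDC, while its means in CDP and cDC were 2.26 and 2.90, both under 5. It passed the filter only through its pDC arrays, and no p-value is given for the same reason. Gna14, Ifnlr1 and Alox5 were too low on the separate arrays to be tested. Gna14 was at the floor of 2.25 in CDP, cDC and pDC. The kit and the scale differ between these arrays and the time course, so levels are not compared across them. Of the 205 genes, 51 (24.9%) were too low to be tested on the separate arrays, against 30.7% of all genes tested.

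**Figure D5:**
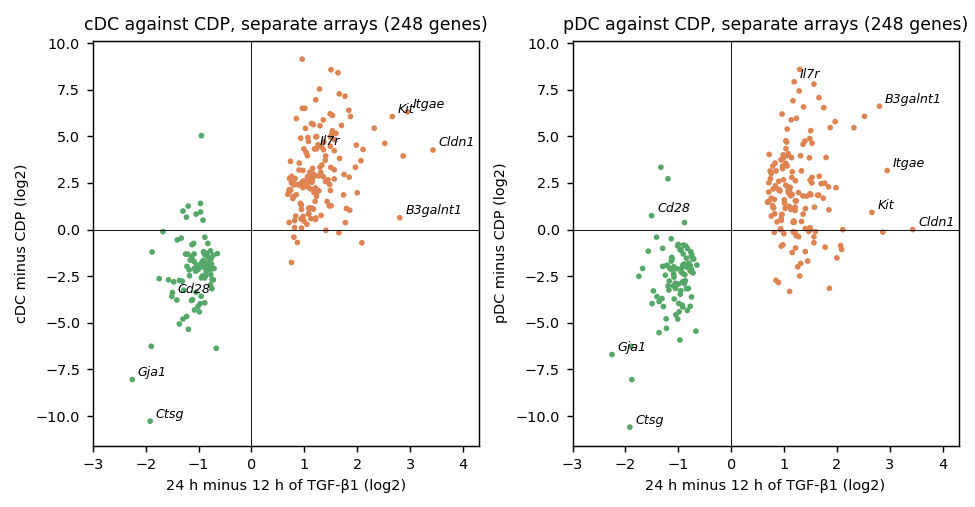
Difference between 24 h and 12 h of TGF-β1 (x axis, log2) against the difference of cDC (left) or pDC (right) from CDP on separate arrays (y axis, log2), for the 248 genes called with the block and tested in both. Of the genes higher at 24 h (orange), 116 of 154 were called higher in cDC; of those lower (green), 77 of 94 were called lower. Where a mean on the separate arrays lies under 5, the plotted difference is a value on the deposited scale and no measure of fold.

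The last step was also set beside the earlier ones. From 8 h to 12 h, no gene was called by limma in either fit, with 374 genes at an unadjusted p under 0.05 without and 848 with the block. From 4 h to 8 h, 1 gene was called without (0.0079%) and 4 with the block (0.0316%), and from 0 h to 4 h 82 (0.648%) and 153 (1.21%). The last step thus had fewer calls than the first without the block and more with it. Means differed by at least 2-fold, without a test, for 195 genes higher and 87 lower at the last step. The same counts were 33 and 30 from 8 h to 12 h, 357 and 56 from 4 h to 8 h, and 164 and 248 from 0 h to 4 h. The intervals are not equal, and neighbouring steps share arrays. The difference between the last 2 steps itself was called for no gene in either fit (195 genes at an unadjusted p under 0.05 without and 420 with the block). Against the first step, 4 h minus 0 h, which shares no array with the last, the difference was called for 17 genes without and 73 with the block, 0.134% and 0.577% of those tested. The difference was positive for 4 and negative for 13 of the 17, and positive for 31 and negative for 42 of the 73.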

How the data were processed

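Values are the log2 probe set intensities that the authors deposited; GCRMA, without a version, is named in the submitters' processing notes. The other arrays share a floor value of 2.25 that the time-course arrays lack. Of 45101 probe sets, 34958 have 1 gene symbol, 932 several and 9211 none; each of 18193 genes was represented by the probe set of highest mean level. limma 3.58.1 in R 4.3.3 (lmFit, eBayes) was fitted to the 10 time-course arrays, on genes above 5 on at least 2 arrays, two-sided, with Benjamini-Hochberg adjustment, and separately to the other 8 cultured-cell arrays. Folds are unlogged differences, computed against 5 and given as "at least" where both lower arrays are under 5. Deviations of same-numbered arrays correlated at 0.27 to 0.85 in all pairs of times, which is the basis of the block on replicate number. The values were 0.67, 0.75 and 0.85 for pairs among 4, 12 and 24 h, where replicate 1 had low 5′ signal. They were 0.27 to 0.54 for the other pairs. The fits were tested on simulated data.

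The comparison, members and lists were chosen with earlier results of these data known. Genes named are the 12 of largest rise and fall among calls (filled by smallest p), up to 3 called per list, and fixed regulators. Use of this rule on the blocked fit, the step comparison, motifs and other genes named were chosen after the values were seen. Of 851 list genes 784 were measured. The number of arrays limits the precision.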

Additional observations from a re-analysis of the deposited data

Results flagged for a closer look

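For 4 genes named here, the change from 12 h to 24 h differed from that from 0 h to 4 h by limma's test of the difference (adjusted p under 0.05; 2 arrays at each time; the contrast was added after the data were seen). For Kit the first step was -1.21 and the last 2.66, a difference of 3.87 ± 0.43 (adjusted p = 0.031, with the block 0.0025). For Xaf1 the steps were -0.36 and 1.67, a difference of 2.03 ± 0.26 (adjusted p = 0.042, with the block 0.016). For Alox5 they were -0.24 and 1.51, a difference of 1.75 ± 0.22 (adjusted p = 0.039, with the block 0.016). For Tgfbr1 the steps were 2.42 and 0.31, a difference of -2.12 ± 0.27 (adjusted p = 0.039, with the block 0.0072). These 4 are among the 17 genes called in that contrast, of which 4 had a positive and 13 a negative difference. For Kit both arrays of 4 h lay below both of 0 h, and both of 24 h above both of 12 h.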

How the results depend on the processing

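The count of 9 genes called (9 of them at least 2-fold) depends on the estimate of spread. With the replicate number as a block it was 310 (203). With only the 4 arrays of 12 h and 24 h it was 0 (0), and with these and the block 2545 (281). Trend and robust moderation gave 23 (23), and with the block 282 (201). No filter gave 24 (24), values under 5 raised to 5 gave 31 (30), median centring 15 (15), quantile normalization 16 (16), the probe set of largest variance 0 (0) and the mean of probe sets 78 (61). The Gapdh covariate gave 621 (254), and with the block 662 (256); leaving out the 3 arrays of low 5′ signal gave 111 (111). Leaving out both 4 h arrays, an alternative added after the data were seen, gave 120 (103), and with the block 707 (265). Leaving out 1 array, or a replicate number at both times, gave 0 to 121 (0 to 104), and with the block 0 to 708 (0 to 265). The cause was not tested. The blocked fit made every one of the 9 calls of the fit without the block and changed no count of the 12 h step or of the difference of steps, both 0. Under the other fits each of the 9 kept its direction. Differences that changed sign were uncalled: Tcf4 reached 0.025 under quantile normalization, and with arrays left out, over both fits, Tcf4 ranged from -0.19 to 0.18, Id1 from -1.69 to 0.19, Spi1 from -0.46 to 0.94, Flt3 from -0.062 to 0.18, Csf1r from -0.019 to 0.35, Gfi1 from -0.19 to 0.45, Smad7 from -0.18 to 0.75 and Tgfb1 from -0.49 to 0.50.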

Other observations

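A search of the promoter windows of the 9 genes called without the block found the SMAD box CAGACA in 1 of 8 windows (Ifnlr1; 12.5%, against 21.0% of all windows) and the AP-1 site TGANTCA in 1 of 8 (Xaf1; 12.5%, against 7.81%), both strands searched and 7 of the genes matched. Of the 310 genes called with the block, 133 had other probe sets above 5, and for 118 of these every other probe set differed in the same direction. Of the 205 higher with the block, 18 had a mean under 5 at 12 h, so their size rests on low values; of the 105 lower, 10 had a mean under 5 at 24 h.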
